A study of Mus musculus with 40 samples.

Results

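The actin cytoskeleton and focal adhesion genes described here are 38 genes chosen by symbol from a fixed list, 38 of the 51789 Ensembl genes of the count table. They comprise actins, members of the calponin family, tropomyosins with caldesmon, filament crosslinkers, focal adhesion proteins, LIM domain proteins, and factors that cap, sever or nucleate filaments. All 38 matched a counted identifier. The 3 genes Actg2, Cnn1 and Fhl1 failed the filter on low counts over all 40 libraries, which left 35, and Tagln failed it in each separate comparison, which left 34 at most. Many of them are known targets of SRF, so the list holds genes that are often described together, and nothing about their joint choice is a result.

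RNA was sequenced from mouse melanoma cells grown in culture, in 20 groups of 2 libraries, 40 in all, to ask how Bmal1, a transcription factor of the circadian clock, and Myh9, the heavy chain of non-muscle myosin IIA, alter the state of these cells. B16 is the B16-F10 line, sequenced as Ctrl and as Bmal1 KO. The study's methods describe these as a control clone and a knockout clone, so clone and genotype cannot be told apart in B16. YUMM2.1, aC3 and YUMM1.7 each received a lentivirus with an empty vector (EV), with wild-type Bmal1 (WT) or with Bmal1 that lacks the basic helix-loop-helix region (dHLH). YUMM2.1 comes from a mouse melanoma with mutant Braf, 1 copy of Cdkn2a and stabilized beta-catenin among its alleles, and YUMM1.7 from one with mutant Braf and loss of Cdkn2a among its alleles. The aC3 cells are 1 Bmal1-null clone of YUMM2.1, and the study's methods describe a Bmal1 luciferase reporter in both the YUMM2.1 and the aC3 cells that took these vectors, so clone and genotype cannot be told apart. Finally, YUMM2.1 cells with EV, WT or dHLH received a control hairpin (shNC) or 1 of the 2 hairpins against Myh9, shMyh9-2 and shMyh9-4. Cells of the same line share its driver mutations, also in the controls, and no source says whether the 2 libraries of a group came from separate cultures, so each p-value measures the spread between libraries, which may be technical.

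Actin filaments form by addition of monomers to a growing end, and nucleators, capping proteins, severing proteins and tropomyosins set where filaments form and how long they last. At focal adhesions, talin, kindlin and vinculin couple integrins to the filaments, and LIM proteins such as zyxin and Hic-5 gather there. Monomeric actin holds MRTF coactivators in the cytoplasm, and when filaments form, MRTF enters the nucleus and drives SRF, which binds a DNA element called the CArG box and is known to activate many of the genes described below.

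The element is shown here because it is what ties this list together in the literature. A CArG box was read as 6 A or T bases between CC and GG in RefSeq promoter windows of 300 bases, from 250 before to 50 after each start, on GRCm38.p6. Of 33 listed genes with a window, 7 (21.2%) held a match, as against 1.81% of 27025 genes with a window. Since SRF targets were among the reasons to list these genes, this difference is a description of the list, and a match is not a bound site. Each line gives the strand of the gene, 5′ to 3′, with the match in capitals.
Actg1, chr11:120348566-120348595, minus strand, 90 bases upstream: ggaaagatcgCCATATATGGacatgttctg
Cnn2, chr10:79988534-79988563, plus strand, 56 bases upstream: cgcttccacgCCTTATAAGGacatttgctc
Vcl, chr14:20929161-20929190, plus strand, 227 bases upstream: cccactatgcCCTTATAAGGagcgccccgc
Fermt2, chr14:45530250-45530279, minus strand, 204 bases upstream: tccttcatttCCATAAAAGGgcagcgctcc
Lima1, chr15:99820177-99820206, minus strand, 47 bases upstream: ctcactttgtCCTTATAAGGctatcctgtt
Fhl2, chr1:43163973-43164002, minus strand, 31 bases upstream: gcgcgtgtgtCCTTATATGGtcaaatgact
Fhl2, chr1:43196838-43196867, minus strand, 96 bases upstream of another start: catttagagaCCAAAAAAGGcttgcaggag
Fhl1, chrX:56779571-56779600, plus strand, 102 bases upstream: ccttggatcaCCTAAAATGGttaagaattt
Cnn2, Vcl and Lima1 hold the same 10 bases, and the levels of these 3 genes moved apart in the comparisons below. Actb, Actg2, Tagln, Tgfb1i1 and Csrp2 had no window.

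Levels are given as CPM, the usual unit of counts relative to library size, after TMM scaling over all 40 libraries, and since QuantSeq reads the 3′ end of a transcript, a CPM does not grow with its length. Totals ranged from 3643332 to 22970049 counts per library with a median of 10021164.5, so that 1 CPM stood for 3.55 to 24.5 counts. Differences are log2 fold changes with their standard error (SE) from edgeR's quasi-likelihood test, and a gene was called where its edgeR adjusted p over all tested genes was under 0.05. A permutation test of 2 against 2 libraries cannot go below p = 0.333. The targeted gene Myh9 fell with shMyh9-2 to 35% of the shNC level in EV cells, 24.3% in WT cells and 30.9% in dHLH cells, and with shMyh9-4 to 69.9%, 52.4% and 74.7%. In these cultures, fewer cells of a kind and less RNA per cell cannot be told apart. Arntl, the symbol of Bmal1, was 10.7 and 15.2 CPM in B16 Ctrl and 11.5 and 13.3 CPM under the label Bmal1 KO, and reads from the 3′ end do not check an edit that leaves the transcript in place. Relative to EV, Arntl with WT and dHLH was 107% and 290% in YUMM2.1, 56.1% and 120% in aC3 and 161% and 208% in YUMM1.7. With shNC it was 120% and 152%. Whether these counts include the RNA of the constructs is not given in the sources used here.

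Markers of melanocytes and fibroblasts separated the lines and some constructs. The summed level of 7 melanocyte genes was 24400 to 26000 CPM in B16 Ctrl, 498 to 516 CPM in YUMM2.1 EV, 81.4 to 94 CPM in YUMM2.1 dHLH and 14.2 to 14.8 CPM in YUMM1.7 EV. Most of it was Sox10 in YUMM2.1, where Dct and Mlana had no count without a hairpin and Dct at most 7 counts in a hairpin group. Of 7 fibroblast genes the sum was 9.63 to 27.2 CPM in YUMM2.1 EV, 307 to 385 CPM in YUMM2.1 dHLH and 2260 to 2290 CPM in YUMM1.7 EV, and Thy1 was at 0 in all of these while Lum stayed under 1 CPM. Over all libraries the sums were 12.3 to 94.5 CPM for smooth muscle genes, with Myocd at 0 throughout, 0.891 to 6.54 CPM for macrophage, 3.75 to 26.4 CPM for endothelial and 0 to 8.26 CPM for keratinocyte genes.

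Of the 38 genes, 19 overlap another annotated gene, and whether counting used strand is not given in the sources used here. Certain libraries stand apart in ways that touch the results. In YUMM2.1, EV replicate 2 resembled WT replicate 2 in Tgfb1i1, Arhgdib and Flnc, and WT replicate 1 resembled EV replicate 1. Over 16619 genes, 1004 differed by more than 2-fold between EV 1 and WT 1 and 1410 between EV 2 and WT 2, as against 1952 between the EV libraries and 1469 between the WT libraries. In the study's own table of expression values each of these libraries, EV 2 and WT 1, stands under the name of the other. Counts of members that rest on them are therefore given with the labels as deposited, with the labels exchanged and without both.

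**Figure D1:**
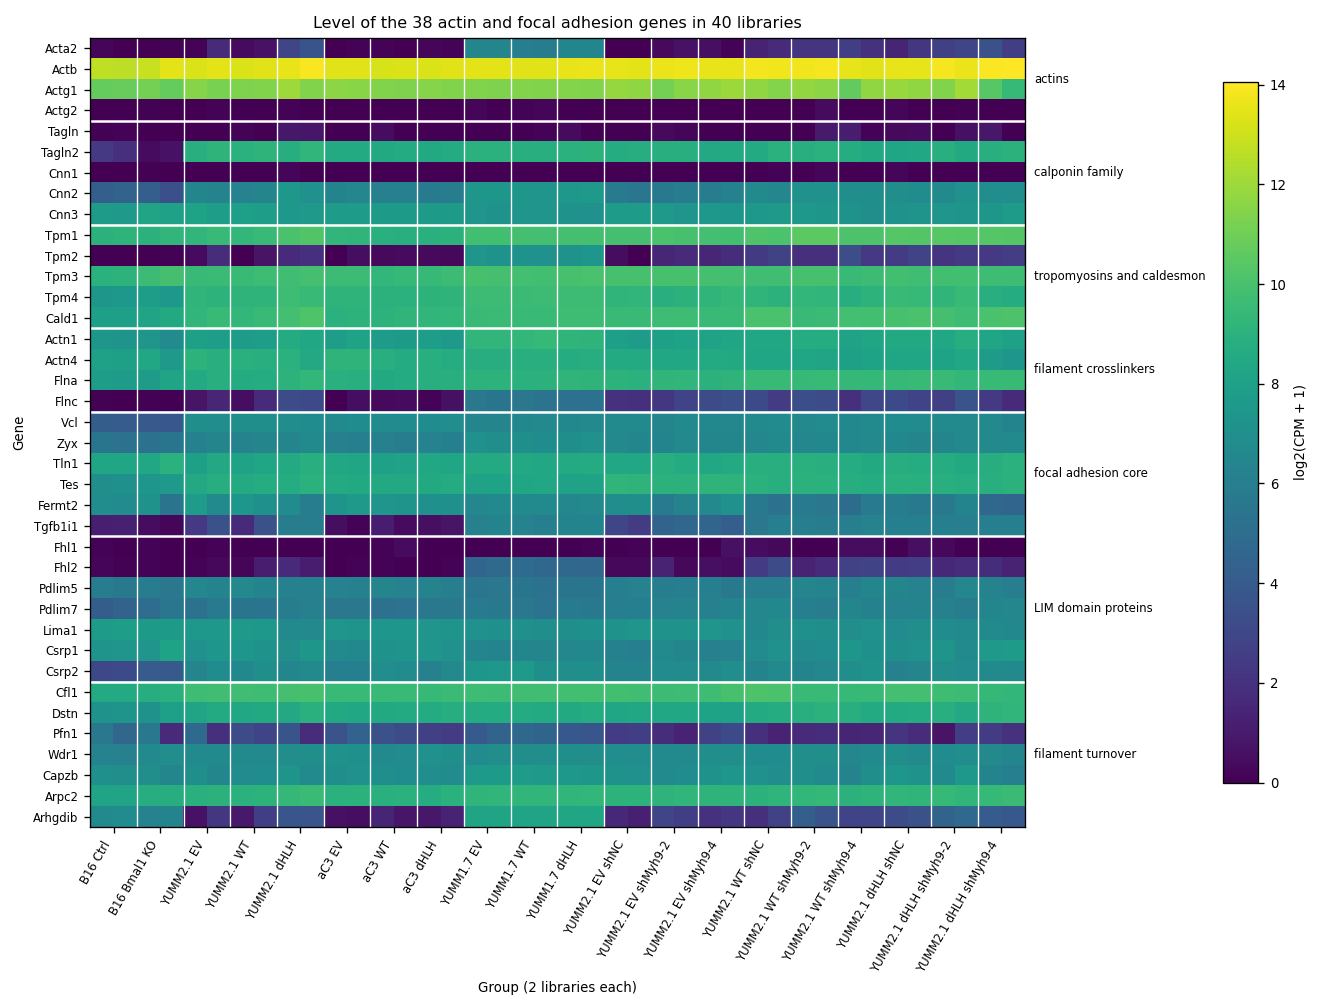
Level of the 38 genes (rows, grouped by role) in the 40 libraries (columns, 2 for each of the 20 groups) as log2(CPM + 1), from 0 in dark to about 14 in yellow. Actb stayed between 6390 and 17000 CPM, whereas Actg2, Tagln, Cnn1 and Fhl1 were near 0 in every library and Tagln2 was low in B16 alone.

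The actins differed most in how far their levels spread over the groups. Actb, the cytoplasmic beta-actin, lay between 6390 and 17000 CPM, and Actg1, the cytoplasmic gamma-actin, between 692 and 4470 CPM. Acta2, the actin of smooth muscle and myofibroblasts, went from 0 to 88.1 CPM and reached 59.2 CPM or more only in the 6 YUMM1.7 libraries. Actg2, the other smooth muscle actin, had 16 counts in all 40 libraries together.

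Within the calponin family, proteins that bind along filaments, the smooth muscle members were close to absent while the others were expressed. Tagln had 68 counts and Cnn1 9 counts over the 40 libraries. Tagln2, also called transgelin-2, was 0.326 to 4.1 CPM in the 4 B16 libraries and 322 to 600 CPM in the other 36. Cnn2 ranged from 9.63 to 189 CPM with B16 lowest, and Cnn3 from 123 to 295 CPM. Of the tropomyosins, coiled coils that coat filaments, Tpm1 (471 to 1470 CPM), Tpm3 (498 to 1050 CPM) and Tpm4 (170 to 837 CPM) were expressed in every library. Tpm2 was different, with 137 to 166 CPM in YUMM1.7 and at most 9.16 CPM elsewhere.

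Filament crosslinkers and adhesion proteins were mostly broad in expression. The alpha-actinins Actn1 (110 to 680 CPM) and Actn4 (169 to 568 CPM) and the filamin Flna (205 to 741 CPM) were present throughout, and the muscle filamin Flnc was 36.7 to 47.7 CPM in YUMM1.7 and at most 11.2 CPM in any other library. Vcl, vinculin, was 13.2 to 16.5 CPM in B16 and 79.4 to 129 CPM in the rest. Zyx, Tln1 and Tes, the genes of zyxin, talin-1 and testin, were at least 37.2, 246 and 121 CPM. Tgfb1i1, which encodes the LIM protein Hic-5, spanned 0.0927 to 80.9 CPM.

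Among LIM domain proteins, Fhl1 had 32 counts in all and Fhl2 was 22.9 to 29.6 CPM in YUMM1.7 and at most 8.67 CPM elsewhere. Csrp2 was 7.29 to 15.7 CPM in B16 and at least 64.9 CPM in the other lines. Pdlim5, Pdlim7, Lima1 and Csrp1 were found in every library, from 17 CPM for Pdlim7 to 280 CPM for Csrp1 at the extremes. Of the genes for filament turnover, those of cofilin (Cfl1), destrin (Dstn), the cofilin partner Wdr1, the capping subunit Capzb and the Arp2/3 subunit Arpc2 were at least 65.5 CPM throughout, while profilin Pfn1 varied from 0.652 to 48.5 CPM. Arhgdib, a gene typical of blood cells, was 292 to 313 CPM in YUMM1.7, 75.3 to 113 CPM in B16 and at most 27.2 CPM elsewhere.

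**Figure D2:**
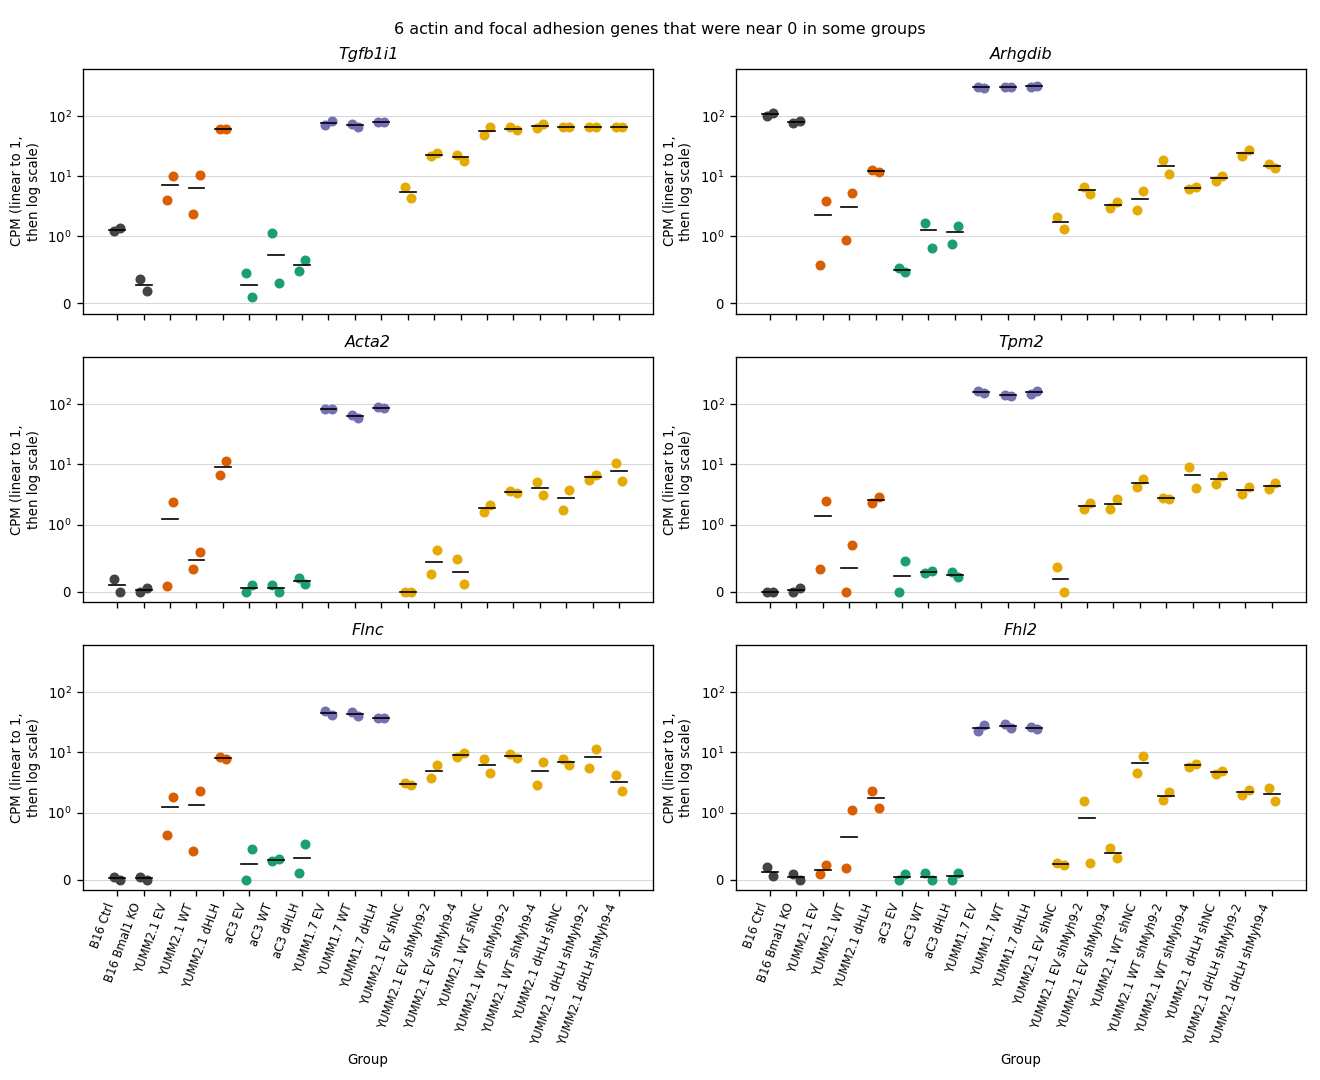
CPM of Tgfb1i1, Arhgdib, Acta2, Tpm2, Flnc and Fhl2 in each library (points) with the group mean (bar), on an axis that is linear to 1 and logarithmic above. All 6 had their highest library in YUMM1.7 and were at most 1.7 CPM in aC3, and Tgfb1i1 in YUMM2.1 with dHLH (60.9 and 60.7 CPM) came close to its YUMM1.7 level.

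Compared with YUMM2.1 EV, the YUMM1.7 EV cells had more RNA of Acta2, Tpm2, Arhgdib, Flnc, Fhl2 and Tgfb1i1 and less of 6 broadly expressed members. Of 34 genes tested, 21 were called, 15 higher and 6 lower, where 37.1% of all tested genes were called, 17.8% higher and 19.3% lower. Acta2 was 83.4 and 82.9 CPM in YUMM1.7 EV and 0.083 and 2.37 CPM in YUMM2.1 EV, a log2 fold change of 6.21 (SE 0.57, edgeR adjusted p = 2.1e-05). Tpm2 was 161 and 150 CPM as against 0.332 and 2.48 CPM (6.89, SE 0.47, edgeR adjusted p = 6.3e-06). No library of one line came near those of the other for these genes. Arhgdib was 299 and 292 CPM as against 0.581 and 3.88 CPM, which gave 7.15 (SE 0.38, edgeR adjusted p = 5.1e-07). Flnc was 47.7 and 42.4 CPM as against 0.664 and 1.83 CPM, higher by 5.22 (SE 0.43, edgeR adjusted p = 1e-05). Fhl2 had only 3 counts in the YUMM2.1 EV libraries together, and its ratio was 180 with a 95% counting interval of 61.4 to 877, which covers counting error only. Tgfb1i1 followed with 69.7 and 80.9 CPM (3.44, SE 0.34, edgeR adjusted p = 3.3e-05). The broadly expressed members moved less, with Actn1 higher by 1.3, Cnn2 by 1.08, Capzb by 0.86, Csrp2 by 0.76 and Zyx by 0.7, and Pdlim5, Csrp1, Cnn3, Vcl, Tes and Lima1 were lower, with log2 fold changes of -0.44 to -0.92. Actb, at 11400 and 11200 CPM, was not called. Without EV 2 and WT 1 of YUMM2.1, 29 genes were called, among them all 21, as were 39.5% of all tested genes, and with their labels exchanged again 29 with all 21, beside 48.5%. Line, experiment and the marker differences given above move together here, and their part in these differences was not tested.

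B16 Ctrl stood on the other side of YUMM2.1 EV for most of the list. Of 34 genes tested, 28 were called, 2 higher and 26 lower, where 54.3% of all tested genes were called, 25% higher and 29.2% lower, and the median log2 fold change was -0.89 over the members and -0.01 over all genes. Tagln2 was 4.1 and 2.67 CPM as against 456 and 557 CPM (-7.25, SE 0.19, edgeR adjusted p = 2.2e-09). Csrp2 was 7.29 and 7.9 CPM as against 84.5 and 115 CPM (-3.74, SE 0.16, edgeR adjusted p = 3.5e-08). Vcl was 16.5 and 16.2 CPM as against 128 and 118 CPM (-2.94, SE 0.11, edgeR adjusted p = 1.2e-08). These 3 are an actin binder, a LIM protein and an adhesion protein, so low levels were spread over the roles. Cnn2 (-2.05), Tpm4 (-1.7), Tes (-1.68), Cald1 (-1.49), Pdlim7 (-1.33), Dstn (-1.19) and Cfl1 (-1.15) were lower as well. Both cytoplasmic actins fell below YUMM2.1, Actb at -0.73 and Actg1 at -0.62. The 2 members higher in B16 were Arhgdib, 99.7 and 113 CPM (5.66, SE 0.38, edgeR adjusted p = 9.5e-07), and Lima1, 215 and 235 CPM as against 179 and 180 CPM (0.3, SE 0.09, edgeR adjusted p = 0.018). Tln1, with 301 CPM in both B16 libraries, Csrp1, Fermt2, Capzb, Pfn1 and Fhl2 were not called. Acta2, called lower, rests on YUMM2.1 EV 2 with 2.37 CPM, and without that library its log2 fold change was 0.16. With the labels of EV 2 and WT 1 exchanged 29 members and 61.7% of all tested genes were called, and without both 29 members and 51.7%, with 26 and 27 of the 28 among them in the same direction.

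In the Bmal1-null clone aC3 with EV, Tgfb1i1 and Csrp1 were lower than in YUMM2.1 EV. Of 34 genes tested, 2 were called and both were lower, where 1.75% of all tested genes were called, 0.441% higher and 1.3% lower. Tgfb1i1 was 0.447 and 0.0927 CPM as against 3.98 and 10.1 CPM (-4.61, SE 0.64, edgeR adjusted p = 0.0066), and Csrp1 was 99.5 and 92.1 CPM as against 137 and 165 CPM (-0.65, SE 0.11, edgeR adjusted p = 0.019). With the labels of EV 2 and WT 1 exchanged 9 members and 9.76% of all tested genes were called, and without both 6 members and 5.84%, and Tgfb1i1 and Csrp1 were among them each time. Without YUMM2.1 EV replicate 1, 16 members were called, 6 higher and 10 lower, beside 9.17% of all tested genes. Neither of the 2 genes was called without aC3 EV replicate 1 or without replicate 2, where a single aC3 library is assumed to vary like the other groups.

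Expression of dHLH in YUMM2.1 came with more RNA of calponin-2, 2 of the 4 tropomyosins (Tpm1 and Tpm4), caldesmon, alpha-actinin-1, filamin C, Hic-5 and an Arp2/3 subunit, and less of Lima1. Of 34 genes tested, 9 were called, 8 higher and 1 lower, where 13.2% of all tested genes were called, 6.51% higher and 6.72% lower. The median log2 fold change was 0.33 over the members and -0.01 over all genes, and 25 of the 34 values were positive. The largest called change was that of Tgfb1i1, with 60.9 and 60.7 CPM in dHLH, 3.98 and 10.1 CPM in EV and 2.31 and 10.3 CPM in WT. Both dHLH libraries lay far above the other 4, and the log2 fold change against EV was 3.13 (SE 0.64, edgeR adjusted p = 0.022). Flnc was 8.52 and 7.72 CPM as against 0.664 and 1.83 CPM in EV (2.74, SE 0.72, edgeR adjusted p = 0.049). Cnn2 was 181 and 139 CPM as against 85.1 and 76.8 CPM (0.99, SE 0.16, edgeR adjusted p = 0.012). Tpm1 was 1020 and 1220 CPM as against 617 and 749 CPM (0.72, SE 0.16, edgeR adjusted p = 0.027). Cald1, the gene of caldesmon, rose by 0.65, Actn1 by 0.63, Tpm4 by 0.52 and Arpc2 by 0.51. Of 6 fits with a library left out, the calls of Cald1, Tpm4 and Arpc2 were lost in 6, Actn1 in 5 and Tpm1 in 4. Those of Tgfb1i1 and Flnc were lost in 3, and those of Cnn2 and Lima1 in 0. Lima1, whose protein bundles filaments and is also called EPLIN, fell by 0.83 (SE 0.11, edgeR adjusted p = 0.0059), from 179 and 180 CPM to 102 and 98.5 CPM.

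Other members were high in dHLH but not called in YUMM2.1. Acta2 was 6.72 and 11.5 CPM in dHLH as against 0.083 and 2.37 CPM in EV (2.97, SE 0.93, edgeR adjusted p = 0.082). Arhgdib was 12.4 and 11.9 CPM as against 0.581 and 3.88 CPM (2.5, SE 0.88, edgeR adjusted p = 0.11). Fhl2 was 2.27 and 1.19 CPM as against 0.083 and 0.216 CPM, with 34 and 3 counts per group, a ratio of 12.7 with a counting interval of 4 to 64.8. For Acta2 and Arhgdib the EV libraries differed widely from each other. Libraries with the same replicate number were read as pairs here from correlated deviations (0.133 to 0.297), which the labels do not state. The pairing thus comes from the same data as the calls, and the block is not separate support for them. With replicate as a block 18 members were called, 15 higher and 3 lower, among them all 9, beside 27.1% of all tested genes. With the labels of EV 2 and WT 1 exchanged 21 were called, 17 higher and 4 lower, with all 9, beside 28.7% of all tested genes. The block keeps the deposited labels, so it and the exchange are different readings of the same libraries and not separate support. Without both libraries 8 members and 11.9% of all tested genes were called, and of the members Cnn2, Flnc, Tgfb1i1 and Lima1 were shared, and the Acta2 and Arhgdib values became 6.57 and 4.34 and were called. Only 2 members, Cnn2 and Lima1, and 4.35% of all tested genes were called without EV replicate 1, and the values for Tgfb1i1 and Flnc were then 2.59 and 2.14. The fibroblast genes were higher beside these members, 307 to 385 CPM in sum as against 9.63 to 27.2 CPM, mostly Col1a1 (231 to 250 CPM) and Col1a2 (65.7 to 117 CPM), and Sox10 was lower with 66.2 to 72.9 CPM as against 484 to 501 CPM. Their part in the result was not tested.

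For wild-type Bmal1 in YUMM2.1 no member was called among 34, where 0% of all tested genes were called by edgeR and DESeq2 called no member. Arntl itself was at 107% of its EV level in these WT cells (0.1, SE 0.24), so these counts showed no clear rise of its RNA. At an unadjusted p under 0.05 there were 0 members and 98 of all genes. With the labels of EV 2 and WT 1 exchanged, Tgfb1i1 and Arhgdib were called higher in WT, where 0.705% of all tested genes were called, and without both libraries Arhgdib alone, where 0.269% were. Which labels are used thus changes whether a member was called between WT and EV.

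**Figure D3:**
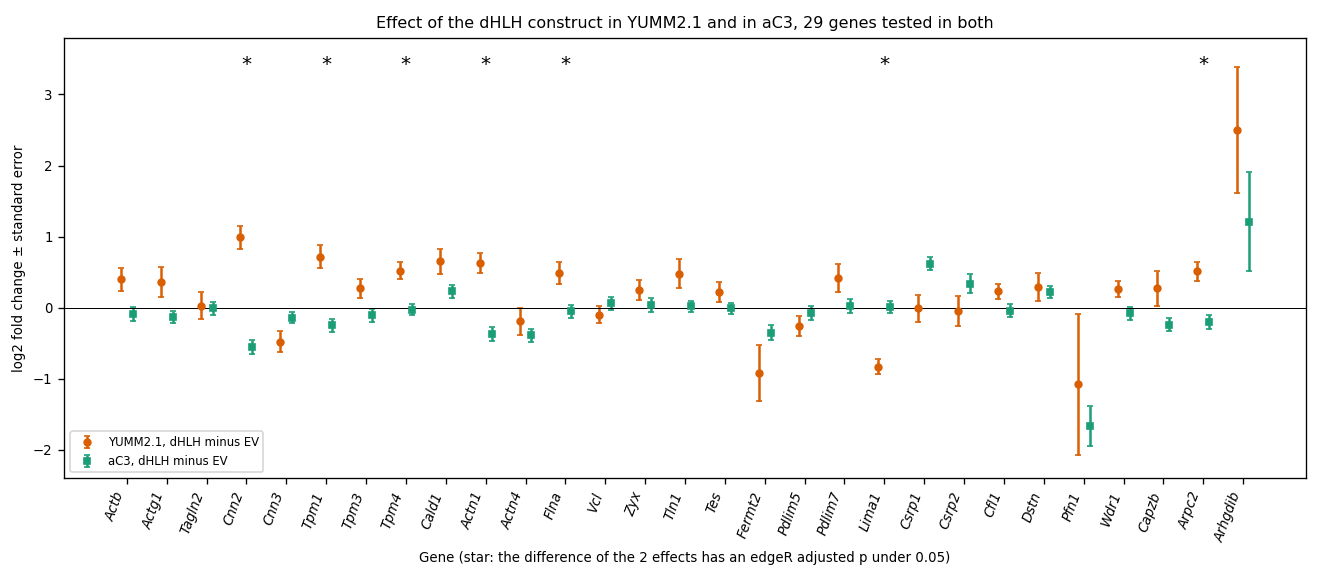
Log2 fold change of dHLH against EV (points, with bars of 1 SE) for the 29 genes tested in both YUMM2.1 (circles) and aC3 (squares). A star marks the 7 genes whose effects differed between the backgrounds, such as Cnn2, at 0.99 in YUMM2.1 and -0.55 in aC3.

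In aC3 the same construct came with less RNA of Pfn1, Cnn2, Actn4, Actn1 and Fermt2 and more of Csrp1. All of these genes also moved between libraries of a single group, as described below. For dHLH against EV, 6 of 29 genes tested were called, 1 higher and 5 lower, where 10.9% of all tested genes were called, 4.79% higher and 6.09% lower. Cnn2 was 56.2 and 62 CPM in dHLH as against 81.5 and 90.3 CPM in EV (-0.55, SE 0.1, edgeR adjusted p = 0.0031). Actn1 (-0.37), Actn4 (-0.39) and Fermt2, the gene of kindlin-2 (-0.35), were lower too. Pfn1, which delivers monomers to growing filaments, was 5.29 and 4.73 CPM as against 10.9 and 20.6 CPM (-1.66, SE 0.28, edgeR adjusted p = 0.0026). Csrp1, a LIM protein of filament bundles, was the member that rose, with 159 and 139 CPM as against 99.5 and 92.1 CPM (0.62, SE 0.09, edgeR adjusted p = 0.00093). Of 6 fits with a library left out, the call of Csrp1 was lost in 0 and those of Cnn2 and Pfn1 in 1. That of Actn4 was lost in 2 and those of Actn1 and Fermt2 in 4. One fit of all 40 libraries kept none of these calls, and its share over all genes is not given here.

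Wild-type Bmal1 in aC3 gave a similar count, 6 of 29, with 2 higher and 4 lower, where 11.2% of all tested genes were called, 4.92% higher and 6.28% lower. Csrp1 was 150 and 156 CPM (0.67, SE 0.09, edgeR adjusted p = 0.00043) and Csrp2 118 and 110 CPM as against 65.3 and 64.9 CPM in EV (0.81, SE 0.13, edgeR adjusted p = 0.0011). The 4 that fell were Actn4 (-0.41), Wdr1 (-0.4), Cnn2 (-0.32) and Tpm1 (-0.3). Csrp1 and Csrp2 stayed called in each of the 6 fits with a library left out, whereas Cnn2 and Tpm1 lost the call in 4 of them, without either EV or either WT library. WT and dHLH share the EV libraries, so the calls they have in common are not independent. Tgfb1i1 stayed between 0.0927 and 1.13 CPM in the 6 aC3 libraries and was not tested, as were Acta2, Tpm2, Flnc and Fhl2.

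The difference between the dHLH effects in YUMM2.1 and aC3 was tested as an interaction. Of 34 genes, 7 were called, 6 with the larger value in YUMM2.1 and 1 with the smaller, where 12.2% of all tested genes were called, 5% higher and 7.16% lower. The term was 1.57 for Cnn2 (SE 0.2, edgeR adjusted p = 0.00038), 1.03 for Actn1 (SE 0.19, edgeR adjusted p = 0.0046) and 1 for Tpm1 (SE 0.17, edgeR adjusted p = 0.0033). Cnn2 and Actn1 were called in opposite directions in the 2 backgrounds, and Tpm1 was called with dHLH in YUMM2.1 alone. Of 6 fits with a library left out, the Actn1 call was lost in 5 in YUMM2.1 and in 4 in aC3. That of Tpm1 in YUMM2.1 was lost in 4, and that of Cnn2 in 0 in YUMM2.1 and in 1 in aC3. Arpc2 (0.74), Tpm4 (0.58) and Flna (0.57) followed, and the term for Lima1, which was 158 and 152 CPM in aC3 EV and 162 and 153 CPM in aC3 dHLH, was -0.81 (SE 0.13, edgeR adjusted p = 0.0016). With the 2 labels exchanged 16 members and 21.5% of all tested genes were called, and with both libraries left out 9 members and 12.8%, which had 7 and 6 of these genes. YUMM2.1 and aC3 differ in clone as well as in Bmal1, and these cannot be told apart.

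In YUMM1.7, 1 member was called with each construct. For WT, Acta2 alone among 34 was called, with 64.6 and 59.2 CPM as against 83.4 and 82.9 CPM in EV (-0.41, SE 0.08, edgeR adjusted p = 0.035), where 0.138% of all tested genes were called, 0.0434% higher and 0.0941% lower. For dHLH, Actb alone was called, with 12500 and 12700 CPM as against 11400 and 11200 CPM (0.16, SE 0.03, edgeR adjusted p = 0.016), where 0.63% of all tested genes were called, 0.21% higher and 0.42% lower. At an unadjusted p under 0.05 there were 9 members and 1423 of all 13816 genes with WT, and 11 members and 1428 genes with dHLH. Tgfb1i1, Tpm2 and Arhgdib were at 66.1 CPM or more in all 6 libraries. Of 6 fits with a library left out, the Acta2 call was lost in 5 and the Actb call in 3. For both genes these included the fits without YUMM1.7 EV replicate 1 or replicate 2. The Acta2 call was also lost with replicate as a block.

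In B16 no member was called between Bmal1 KO and Ctrl among 30 tested, where 0.44% of all tested genes were called. At an unadjusted p under 0.05 there were 10 members and 1715 of all genes, and DESeq2 called 3 members, Pdlim7 and Tpm3 higher and Tagln2 lower, and 2.97% of all tested genes. Tagln2 was 0.326 and 0.623 CPM in KO as against 4.1 and 2.67 CPM (-2.84, SE 0.54, edgeR adjusted p = 0.14). Tgfb1i1 was 0.367 and 0.192 CPM as against 1.24 and 1.36 CPM (-2.19, SE 0.65, edgeR adjusted p = 0.31). Neither gene was called by edgeR, and the levels of Tgfb1i1 were near or under 1 CPM. The KO libraries differed widely from each other, for example Pfn1 with 48.1 and 2.16 CPM and Fermt2 with 140 and 40.9 CPM, and without KO replicate 1 as many as 23 members were called, with 43.4% of all tested genes, and without replicate 2 there were 13, with 14.5%.

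**Figure D4:**
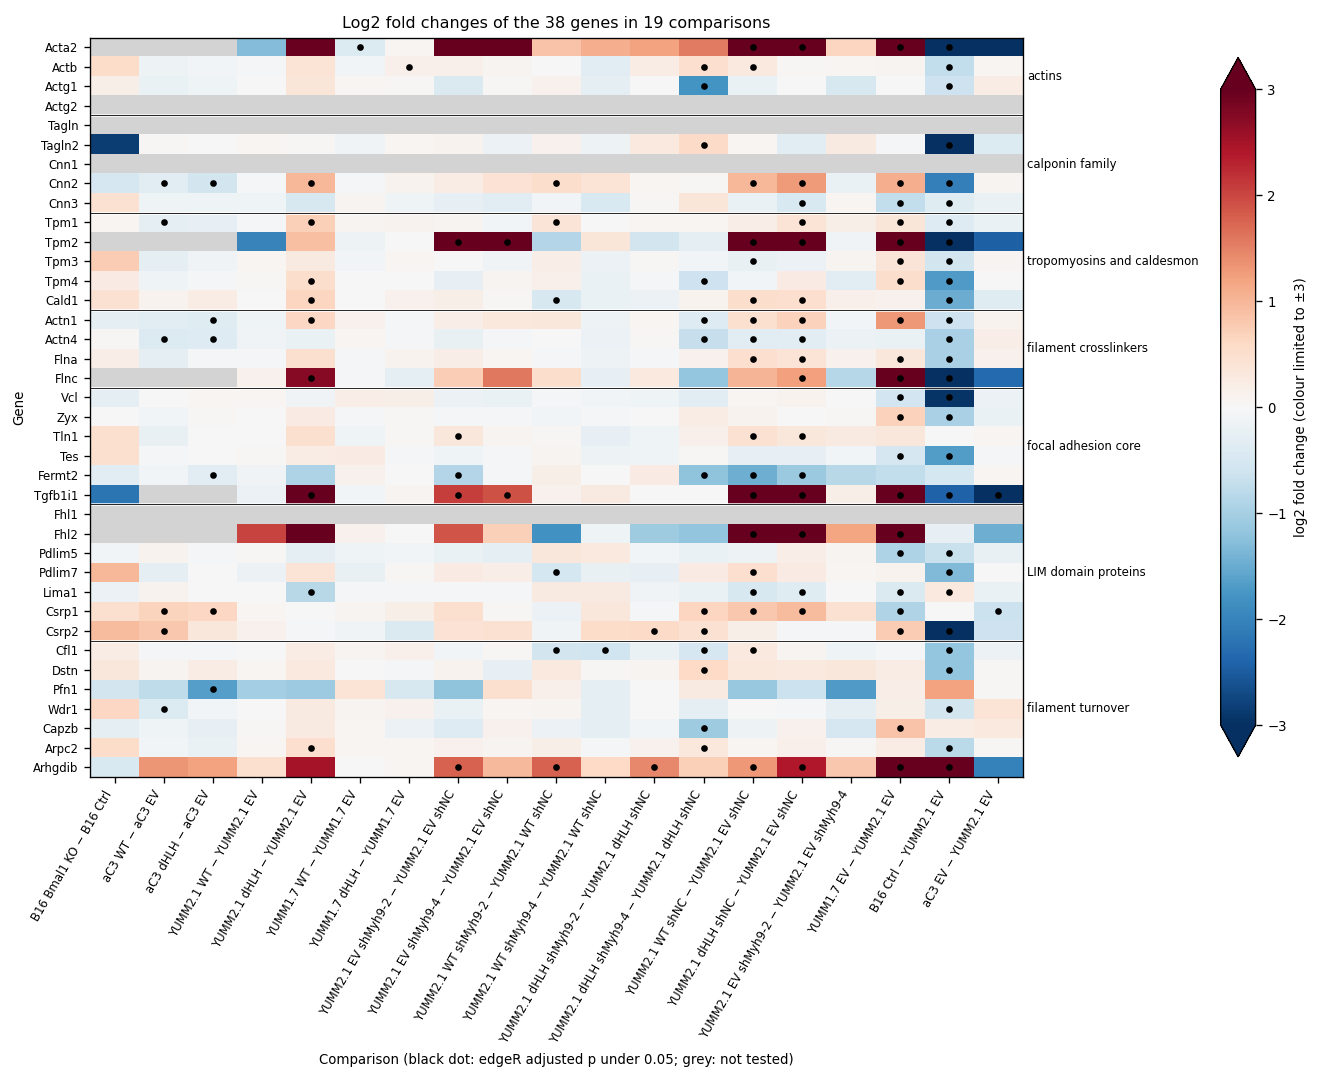
Log2 fold changes of the 38 genes (rows, by role) in 19 comparisons (columns), red for higher and blue for lower, with colour limited to 3 in size, a dot where the edgeR adjusted p was under 0.05 and grey where a gene was not tested. Dots gather in the comparisons of lines and of the shNC cells, and Tgfb1i1 is dark red with dHLH in YUMM2.1, in both shNC comparisons and in YUMM1.7.

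Among YUMM2.1 cells with the control hairpin, more of the members were higher than lower with either construct, Tgfb1i1, Fhl2 and Cnn2 among them. For WT shNC against EV shNC, 18 of 34 genes tested were called, 14 higher and 4 lower, where 22.3% of all tested genes were called, 11.7% higher and 10.6% lower. For dHLH shNC against EV shNC, 17 of 34 were called, 13 higher and 4 lower, where 26.4% of all tested genes were called, 13.9% higher and 12.5% lower. Both comparisons share the EV shNC libraries. Tgfb1i1 was 6.54 and 4.37 CPM in EV shNC, 47.4 and 65 CPM in WT shNC and 65.7 and 65.7 CPM in dHLH shNC. These are log2 fold changes of 3.38 (SE 0.2, edgeR adjusted p = 2.1e-09) and 3.6 (SE 0.2, edgeR adjusted p = 3.6e-10). Acta2 had no count in the EV shNC libraries, 30 counts over the WT shNC libraries and 48 over the dHLH shNC libraries. Against a floor of 3 counts over the group, it was at least 10.8-fold higher with WT and at least 13.2-fold higher with dHLH. Tpm2 went from 3 counts over the EV shNC libraries to 79 and 108, ratios of 28.4 (counting interval 9.38 to 141) and 29.8 (9.93 to 147).

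The broadly expressed members changed by smaller steps in the same cells. Cnn2 was 51.8 and 44.7 CPM in EV shNC, 101 and 90.3 CPM in WT shNC (0.99, SE 0.14, edgeR adjusted p = 5.4e-05) and 121 and 113 CPM in dHLH shNC (1.28, SE 0.14, edgeR adjusted p = 1.9e-06). Fhl2, a LIM coactivator of transcription, was 0.247 and 0.224 CPM in EV shNC, 4.62 and 8.67 CPM in WT shNC and 4.44 and 4.86 CPM in dHLH shNC. Arhgdib was 2.1 and 1.35 CPM, then 2.72 and 5.7 CPM with WT (1.31) and 8.19 and 10.1 CPM with dHLH (2.4). Csrp1 rose by 0.82 and 0.95, Cald1 by 0.53 and 0.51, Actn1 by 0.49 and 0.7, Flna by 0.5 and 0.42 and Tln1 by 0.46 and 0.35 with WT and dHLH. Actb, Pdlim7 and Cfl1 were called higher with WT alone and Tpm1 and Flnc with dHLH alone, and whether WT and dHLH differed was not tested. Of 18 fits with a library left out, Flnc lost its call in 7 and Cfl1 in 7. Fermt2 was the member with the largest called decrease, from 119 and 125 CPM in EV shNC to 50.2 and 38.3 CPM with WT (-1.46) and 60.6 and 50.6 CPM with dHLH (-1.12). Lima1 and Actn4 were lower in both. The call of Lima1 was lost with WT without EV shNC 2 or WT shNC 1 and with dHLH without either EV shNC library or dHLH shNC 1, and that of Arhgdib with WT without either EV shNC library or WT shNC 2. The sum of the fibroblast genes was 10.8 to 12.8 CPM in EV shNC, 69.5 to 75.2 CPM in WT shNC and 294 to 323 CPM in dHLH shNC, and that of the melanocyte genes 346 to 349, 119 to 122 and 41.2 to 44.3 CPM. Their part in these differences was not tested.

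Knockdown of Myh9 in EV cells raised Tgfb1i1 and Tpm2 with both hairpins. With shMyh9-2, 5 of 34 genes tested were called, 4 higher and 1 lower, where 6.65% of all tested genes were called, 4.2% higher and 2.46% lower. With shMyh9-4, 2 were called and both were higher, where 1.71% of all tested genes were called, 1.45% higher and 0.256% lower. Tgfb1i1 was 21.3 and 24.1 CPM with shMyh9-2 (2.07, SE 0.21, edgeR adjusted p = 6.4e-06) and 22.6 and 18.1 CPM with shMyh9-4 (1.9, SE 0.21, edgeR adjusted p = 5.4e-05), as against 6.54 and 4.37 CPM with shNC. All 4 knockdown libraries lay above both control libraries and below those of WT shNC. Tpm2 had 32 counts with shMyh9-2 and 40 with shMyh9-4 over the group as against 3 with shNC, ratios of 11.6 (counting interval 3.64 to 59.4) and 12.7 (4.06 to 64.4). With shMyh9-2 alone, Arhgdib (6.59 and 5.12 CPM, 1.77) and Tln1 (446 and 405 CPM, 0.35) were called higher and Fermt2 (55.5 and 75.8 CPM, -0.89) lower. Between the 2 hairpins no member was called by edgeR or DESeq2, where 0.492% of all tested genes were called, and 10 members and 2258 of all genes had an unadjusted p under 0.05. Of 18 fits with a library left out, Tgfb1i1 lost its call in 0 and Tpm2 in 2 with each hairpin. EV shNC replicate 2 had no count of Tpm2. Without that library the log2 fold change of Tpm2 was 2.41 with shMyh9-2 and 2.55 with shMyh9-4. Tln1 lost its call in 14 of 18 fits with a library left out, and Arhgdib without EV shNC 2 or shMyh9-2 replicate 1. Fermt2 lost its call in 6, among them without either EV shNC library and without either EV shMyh9-2 library. The fibroblast genes summed to 31.1 to 39.2 CPM with shMyh9-2 and 18.2 to 20.1 CPM with shMyh9-4 as against 10.8 to 12.8 CPM with shNC, of which Col1a1 was 17.9 to 24.4, 5.99 to 6.02 and 1.85 to 2.13 CPM. The melanocyte genes summed to 204 to 217 and 250 to 282 CPM as against 346 to 349 CPM. Their part in the result was not tested.

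In cells with WT or dHLH, where Tgfb1i1 was high with shNC, it was not called with either hairpin. In dHLH cells Tgfb1i1 was 65.7 and 65.7 CPM with shNC, 65 and 64.5 CPM with shMyh9-2 and 64 and 65.8 CPM with shMyh9-4. The effect of shMyh9-2 in dHLH cells less that in EV cells was -2.09 for Tgfb1i1 (SE 0.26, edgeR adjusted p = 0.00014) and -3.97 for Tpm2 (SE 0.93, edgeR adjusted p = 0.024). These were the 2 members called among 34 in that interaction, where 3.29% of all tested genes were called, 1.1% higher and 2.2% lower, and the Tpm2 term rests on the 3 counts of EV shNC and was not called without EV shNC replicate 2 (-2.93). In WT cells Tgfb1i1 was 47.4 and 65 CPM with shNC, 64.3 and 58.5 CPM with shMyh9-2 and 62.3 and 72.9 CPM with shMyh9-4.

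Other members moved with the hairpins in these cells. With shMyh9-2 in WT cells, 6 of 34 were called, 3 higher and 3 lower, where 4.76% of all tested genes were called, 2.35% higher and 2.41% lower. Arhgdib was 18.2 and 10.9 CPM as against 2.72 and 5.7 CPM (1.77, SE 0.32, edgeR adjusted p = 0.0033), Cnn2 (0.52) and Tpm1 (0.38) rose as well, and Cfl1 (-0.55), Pdlim7 (-0.52) and Cald1 (-0.49) fell. The call of Cfl1 stayed in each of 18 fits with a library left out. Those of the other members were each lost when some single library was left out, among them WT shMyh9-2 replicate 1. Cfl1, the gene of cofilin, which severs old filaments, was also the 1 member called with shMyh9-4 in WT cells, where 0.236% of all tested genes were called, 0.0876% higher and 0.148% lower, with 681 and 739 CPM as against 1110 and 1030 CPM (-0.59, SE 0.09, edgeR adjusted p = 0.016). Genes with a near-identical stretch held counts equal to 14.7% of those of Cfl1, so its level is uncertain by how reads were divided. This call was lost without either WT shNC library and without WT shMyh9-4 replicate 1. With shMyh9-2 in dHLH cells, Arhgdib (21.3 and 27.2 CPM as against 8.19 and 10.1 CPM, 1.43) and Csrp2 (122 and 110 CPM as against 72.3 and 82.7 CPM, 0.58) were called among 34, where 0.559% of all tested genes were called, 0.296% higher and 0.263% lower. Arhgdib was thus called higher with shMyh9-2 in all 3 backgrounds and with shMyh9-4 in none of them, and the difference between the hairpins was not called in EV cells and was not tested in the others. Of 18 fits with a library left out, the call was lost in 2 in EV cells, in 2 in WT cells (without WT shNC 1 or shMyh9-2 replicate 1) and in 8 in dHLH cells, where Csrp2 lost its call in 13, and one fit of all 40 libraries did not call Arhgdib in EV or dHLH cells. The fibroblast sum was 164 to 169 CPM with shMyh9-2 in WT cells and 333 to 449 CPM in dHLH cells, above the 69.5 to 75.2 and 294 to 323 CPM of shNC.

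The comparison of shMyh9-4 with shNC in dHLH cells had more calls than the other 5 hairpin comparisons, although Myh9 remained at 74.7% there. Of 34 genes tested, 13 were called, 6 higher and 7 lower, where 15.1% of all tested genes were called, 6.28% higher and 8.86% lower. Actg1 was 1350 and 692 CPM as against 3820 and 3380 CPM (-1.8, SE 0.3, edgeR adjusted p = 0.0013). Actb went the other way, 15900 and 17000 CPM as against 11800 and 11800 CPM (0.5, SE 0.07, edgeR adjusted p = 0.00091). Fermt2 (-1.2), Capzb (-1.06), Actn4 (-0.68), Tpm4 (-0.62), Cfl1 (-0.5) and Actn1 (-0.39) fell, and Csrp1 (0.65), Dstn (0.59), Tagln2 (0.58), Csrp2 (0.46) and Arpc2 (0.31) rose. The 2 shMyh9-4 libraries held 3643332 and 6001340 counts and the shNC libraries 14718654 and 6347481. Without shMyh9-4 replicate 2 of these cells, the library with 692 CPM of Actg1, 3 members and 1.24% of all tested genes were called. Most of these genes are among those that moved between libraries of a single group, which the next values describe.

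A pattern shared by many members ran between libraries of the same group. A library score was taken as the first principal component of the differences within groups over 16481 genes outside the lists used here, and it held 14.5% of the variance within groups. Over 20 groups, the difference between the 2 libraries of a group correlated with the score difference above 0.6 in size for 19 of 35 members, 10 positive and 9 negative, which is 54.3% of the members and 22% of all genes. The coefficient was 0.94 for Dstn, 0.89 for Csrp1, 0.87 for Cald1 and 0.85 for Actb. At the other end were Capzb and Tpm4 with -0.94, Fermt2 with -0.92, Actn4 with -0.88, Actg1 with -0.85 and Pfn1 with -0.84. For Tgfb1i1 (0.15), Arhgdib (0.25), Acta2 (0.35), Fhl2 (-0.01), Lima1 (0.01) and Cfl1 (0.05) it was small. These are descriptions over pairs of libraries, in which the genes of a pair come from the same 2 libraries.

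The score also differed between groups that were compared. It was -0.47 and -0.35 in EV shNC, 0.38 and 1.29 in WT shNC, 0.15 and 0.54 in dHLH shNC and 1.33 and 2.67 in dHLH shMyh9-4. In EV shMyh9-2 it was 0.99 and 0.38, where Tln1 (coefficient 0.81) was called higher and Fermt2 (-0.92) lower than in EV shNC. In YUMM2.1 it was -1.47 and 0.52 in EV and -0.71 and 1.39 in dHLH, and in B16 KO -1.61 and 1.15. In aC3 it was -0.64 and -0.93 in EV and -0.46 and -0.17 in dHLH. Every member called with dHLH in aC3 differed in the direction in which it followed the score within groups. Their coefficients were 0.89 for Csrp1 and from -0.7 (Cnn2) to -0.92 (Fermt2) for the others. The part of the score in these calls was not tested. The score was also used as a term in one fit of all 40 libraries, an alternative chosen after seeing the data. For shMyh9-4 in dHLH cells this fit called 8 members, rather than the 13 given above, and 7.77% of all tested genes. Fermt2, Csrp1, Dstn and Tagln2 were among the 7 lost. The same fit called 23 members, 20 higher and 3 lower, and 25.2% of all tested genes for dHLH in YUMM2.1, and 14 members and 12.8% of all tested genes in B16. This fit differs from the main fits in pooling all 40 libraries as well as in the score. The part of the score in these counts cannot be told from them. What the score stands for was not tested.

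**Figure D5:**
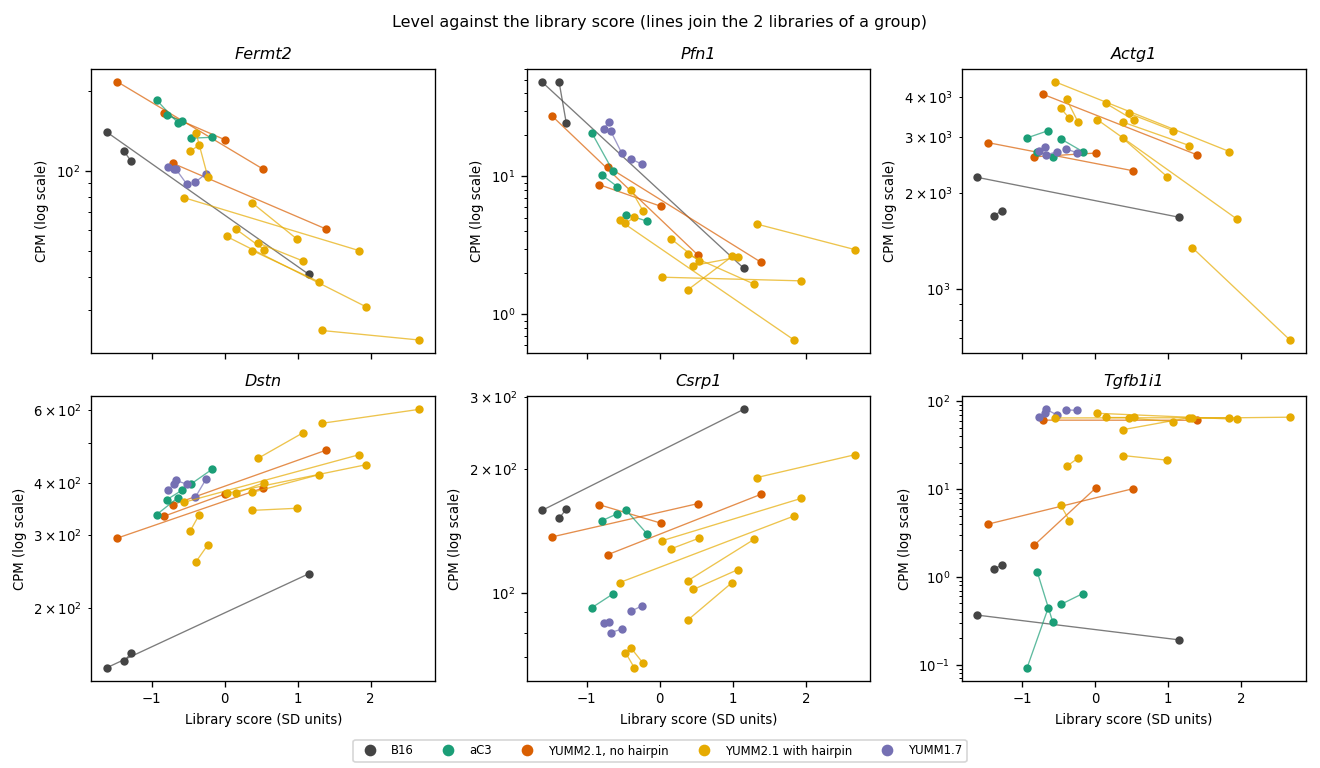
CPM on a log axis against the library score (in SD units) for Fermt2, Pfn1, Actg1, Dstn, Csrp1 and Tgfb1i1, with lines that join the 2 libraries of a group. Fermt2, Pfn1 and Actg1 fall and Dstn and Csrp1 rise with the score inside most groups, while Tgfb1i1 differs between groups at any score.

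SRF and its coactivators did not follow the members in every comparison. Srf was 38.6 and 38.7 CPM in YUMM2.1 EV and 36.4 and 38.4 CPM in dHLH (-0.04, SE 0.13, edgeR adjusted p = 0.87). It was 32.1 and 35.4 CPM in EV shNC and 59.5 CPM in both dHLH shNC libraries (0.82, SE 0.19, edgeR adjusted p = 0.0032). YUMM1.7 EV had 76.7 and 84 CPM, higher than YUMM2.1 EV by 1.05 (SE 0.12, edgeR adjusted p = 8.4e-05), and B16 Ctrl by 0.56, while most members were lower in B16. With the labels of EV 2 and WT 1 exchanged or both libraries left out, the Srf differences from YUMM2.1 EV were -0.13 or -0.06 for dHLH, 0.96 or 1.05 for YUMM1.7 and 0.47 or 0.56 for B16. With shMyh9-4 in dHLH cells Srf fell by 1.08 (SE 0.2, edgeR adjusted p = 0.0024). Mrtfa was higher in YUMM1.7 EV than in YUMM2.1 EV by 0.95 and was not called in any comparison of a construct or a hairpin with the labels as deposited, though with those of EV 2 and WT 1 exchanged it was higher with dHLH in YUMM2.1 by 0.8 (edgeR adjusted p = 0.016), Mrtfb was higher by 0.39 in both WT shNC and dHLH shNC than in EV shNC, and Myocd had no count.

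Of 82 other genes of the actin pathway (myosin II subunits, further focal adhesion and actin-binding genes, and signalling genes), 78 were tested in YUMM2.1 and 16 rose and 6 fell with dHLH, as did 6.51% and 6.72% of all tested genes. With the labels of EV 2 and WT 1 exchanged 25 rose and 10 fell, as did 15.2% and 13.5% of all tested genes. The 4 with the largest changes were Fscn1, the bundling protein fascin, 95.3 and 107 CPM as against 3.57 and 18.4 CPM (3.24), Myh14, a heavy chain of myosin II (-2.78), Tns1, tensin-1 of focal adhesions (2.58), and Ablim1 (-2.34). With the labels exchanged or both libraries left out, these were 4.51 or 4.81 for Fscn1, -2.81 or -2.76 for Myh14, 3.19 or 3.09 for Tns1 and -2.62 or -2.64 for Ablim1, and all were called. With shMyh9-2 in EV cells 12 rose and 5 fell, as did 4.2% and 2.46% of all tested genes. Here Myh9 itself led (-1.51), then Tns1, 38.9 and 46.5 CPM as against 15.7 and 15.8 CPM (1.44), Nexn (1.25) and Mylk, the gene of myosin light chain kinase (1.18). In YUMM1.7 EV against YUMM2.1 EV 26 were higher and 17 lower, as were 17.8% and 19.3% of all tested genes. With the labels exchanged 32 were higher and 27 lower, as were 24.3% and 24.2% of all tested genes. Here Myh14 had no count in YUMM1.7 EV while Myh10 fell to 0.267 and 0.0936 CPM from 44.3 and 57.6 CPM.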

How the data were processed

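RNA of mouse melanoma cells was made into 40 QuantSeq FWD libraries from 3′ ends (Lexogen) after DNaseI treatment and read as single ends. Per the labels and the study's methods, the authors aligned the reads to mm10 with bowtie2 and estimated a count for each Ensembl gene with RSEM, and they deposited these estimated counts as whole numbers. The Ensembl release and whether counting used strand are not given in the sources used here. RSEM divides reads that match several genes, which touches Cfl1, and an end-counting library does not see changes upstream in a transcript.

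The counts were used as deposited. Each comparison was fitted on all genes with edgeR 4.0.16 in R 4.3.3 (TMM scaling, filterByExpr, glmQLFit, glmQLFTest) with no covariate and Benjamini-Hochberg adjustment over all genes tested, and a gene was called under 0.05. Fits held the libraries of 1 line (B16, aC3, YUMM2.1 or YUMM1.7), the 18 hairpin libraries, the 8 control libraries of the lines, or YUMM2.1 and aC3 together for the interaction. A log2 CPM used a prior count of 2. Groups followed the labels, with 2 libraries each. No 2 libraries of a group were alike within sampling noise. Symbols came from a GRCm38 annotation that matched 99.6% of the identifiers. Intervals and floors cover counting error only, as reads carry no molecular identifiers here.

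The members and the other lists were chosen with earlier results of these data known. Named genes were all 38 members whatever their values, Arntl and Myh9, the marker lists, SRF and its coactivators, and from the 82 further actin pathway genes the 4 with the largest absolute change among those called with a mean of at least 10 counts in 3 comparisons.

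In YUMM2.1 the deviations of libraries with the same replicate number correlated at 0.133 to 0.297 in all 3 pairs of groups. On that ground, taken from the same data, these numbers were read as pairs. The library score of replicate 2 less replicate 1 was also positive in EV, WT and dHLH (1.99, 0.84 and 2.1). Whether the correlations go beyond that shared direction was not tested. The labels give the numbers and do not say what libraries with 1 number share. Alternatives were DESeq2 size factors, the DESeq2 1.42.0 Wald test, no filter on low counts, the replicate number as a block, 1 fit of all 40 libraries, each library left out in turn, and the labels of YUMM2.1 EV 2 and WT 1 exchanged or both libraries left out. A fit of all 40 libraries with a library score as a term was added after the data were seen.

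The procedure was tested on simulated data with 200 changed genes. Each gene was drawn independently, without the pattern that many genes shared between libraries and with every label right. The rates below therefore need not hold for the real libraries. For dHLH in YUMM2.1 (13959 genes) it recovered 14.9% of 2-fold and 63.6% of 4-fold changes and 11.67% of its calls were false. For dHLH in aC3 (13543 genes) it recovered 68.7% and 92.4%, with 6.62% of calls false. For B16 (14241 genes) it recovered 4.5% and 59.1%, with 25% of calls false, and for shMyh9-2 in EV cells (14389 genes) 43.3% and 75.8%, with 5.1% of calls false.

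Some alleles of the lines are not reported here.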

Additional observations from a re-analysis of the deposited data

Results flagged for a closer look

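Members whose response to 1 construct or hairpin differed between cell backgrounds stand here, each by the interaction term of edgeR's quasi-likelihood test with an adjusted p under 0.05 over all genes. For dHLH against EV, the effect in YUMM2.1 less the effect in aC3 was 1.57 on the log2 scale for Cnn2, 1.03 for Actn1, 1 for Tpm1, 0.74 for Arpc2, 0.58 for Tpm4, 0.57 for Flna and -0.81 for Lima1. Of 12 fits with a library left out, the call was lost in 10 for Flna, in 5 for Tpm4 and in 3 for Arpc2. Tpm1 and Tpm4 of the 4 tropomyosins, an alpha-actinin, a filamin and an Arp2/3 subunit had the larger value in YUMM2.1, and the term for Lima1, whose product bundles filaments, had the other sign. For shMyh9-2 against shNC, the effect in dHLH cells less that in EV cells was -2.09 for Tgfb1i1 and -3.97 for Tpm2. Groups of 2 libraries are too small for a test of single libraries that stand apart.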

How the results depend on the processing

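Counts of called members depended on the setting in most comparisons, while directions rarely did. The share of all tested genes called moved as well. In B16 it went from 0.44% to 2.97% with DESeq2 and to 12.8% in one fit of all libraries with the library term. Most counts below stand without that share, so a change in them is not a result about the members. Of 152 gene values, 150 kept direction and side of the threshold with DESeq2 size factors, 147 with the DESeq2 Wald test, 145 without the filter on low counts, 144 with the replicate block, 114 in one fit of all 40 libraries and 123 with the library term, and none of these 6 settings reversed a value. With 1 library left out, 1576 of 1844 values kept both, 262 lost the call, 5 gained it and 1 reversed. That was Acta2 in B16 Ctrl against YUMM2.1 EV, -3.43 on the log2 scale, between -6.78 and 0.16 with a library left out, the last without YUMM2.1 EV replicate 2, and also 0.16 with WT replicate 1 left out as well. Where not stated, the cause of a change was not tested.

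With DESeq2 the members called were 3 rather than 0 in B16, 2 rather than 1 for both WT and dHLH in YUMM1.7, 4 rather than 2 for shMyh9-4 in EV cells, 4 rather than 1 for shMyh9-4 in WT cells and 5 rather than 2 for aC3 EV against YUMM2.1 EV. Without the filter they were 1 in B16, 10 rather than 6 for WT in aC3, 18 rather than 9 for dHLH in YUMM2.1, 2 for both constructs in YUMM1.7, 9 rather than 5 for shMyh9-2 and 4 for shMyh9-4 in EV cells, 4 for shMyh9-4 in WT cells, 5 rather than 0 between the hairpins, 10 for aC3 EV, 11 rather than 7 for the dHLH interaction and 4 rather than 2 for the shMyh9-2 interaction. One fit of all libraries gave 12 in B16, 2 for WT and 0 for dHLH in aC3, 18 for dHLH in YUMM2.1, 0 for both constructs in YUMM1.7, 2 for shMyh9-2 and 1 for shMyh9-4 in EV cells, 0 for shMyh9-2 in dHLH cells and 1 for its interaction. The library term gave 14 in B16, 3 for dHLH in aC3, 23 for dHLH in YUMM2.1, 0 for both constructs in YUMM1.7, 3 for shMyh9-2 in EV cells, 3 for shMyh9-4 in WT cells, 1 for shMyh9-2 and 8 for shMyh9-4 in dHLH cells, 6 for aC3 EV and 13 for the dHLH interaction.

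With the 2 YUMM2.1 labels exchanged the counts were 2 for WT, 21 for dHLH, 9 for aC3 EV and 16 for the interaction, and with both libraries left out 1 for WT and 6 for aC3 EV.

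The replicate block gave 18 rather than 9 for dHLH in YUMM2.1, where the numbers were read as pairs. It gave 0 rather than 1 for WT in YUMM1.7 and 1 rather than 2 for shMyh9-2 in dHLH cells, and stayed within 1.5 times in the other 18 comparisons. In the other fits libraries shared only a number, with correlations of 0.087 in B16, 0.01 to 0.054 in aC3, -0.029 to 0.051 in YUMM1.7 and -0.107 to 0.159 among the hairpin groups.

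With each library left out in turn the count ran from 0 to 23 in B16, 3 to 12 for WT and 1 to 9 for dHLH in aC3, 0 to 0 for WT and 2 to 9 for dHLH in YUMM2.1, 0 to 3 for WT and 0 to 2 for dHLH in YUMM1.7, 1 to 7 for shMyh9-2 and 1 to 3 for shMyh9-4 in EV cells, 1 to 7 and 0 to 2 in WT cells, and 0 to 2 and 3 to 15 in dHLH cells. It was 10 to 19 for WT shNC, 12 to 18 for dHLH shNC, 0 to 1 between the hairpins, 17 to 29 for YUMM1.7, 25 to 30 for B16 and 0 to 16 for aC3 against YUMM2.1 EV, 4 to 8 for the dHLH interaction and 1 to 4 for the shMyh9-2 interaction. A group reduced to 1 library is assumed there to vary like the others. With 2 libraries a group, small changes of low genes such as Acta2, Tpm2 and Fhl2 are limited by depth.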
